A study of Homo sapiens with 8 samples.

Results

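NGP is a neuroblastoma cell line with an amplified MYCN gene, and its response to an inhibitor of the arginine methyltransferase PRMT5 is described here across all measured genes. The 4 NGP libraries were taken from the 8 libraries of the study by the cell line in their labels. They form 2 groups of 2 libraries, one group given the vehicle DMSO and one given the inhibitor, which the sample labels call JSK591 and the treatment protocol GSK591. Both groups grew in RPMI1640 with serum and were treated for 6 days, and the inhibitor was given at its IC50, with no concentration stated. The other 4 libraries are the same treatments of CHLA-20, a line without MYCN amplification, and are used where the NGP response is compared with a second line. The labels do not say that replicates are separate cultures, so p-values measure the spread between these libraries, which may be technical. A change of a transcript in bulk RNA cannot tell apart fewer cells of a kind from less RNA per cell.

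PRMT5 dimethylates arginines symmetrically, in histones, in the Sm proteins that form the core of spliceosomal particles, and in other RNA-binding proteins. With its partner WDR77 (MEP50) it is needed for the assembly of those particles, and cells short of its activity splice many introns less well. NGP also carries amplified MDM2, whose product is a ubiquitin ligase.

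Gene counts summed to between 33188542 and 33590507 in the NGP libraries. Replicates lay closer to each other than to the other treatment: the chi-square of their counts over its degrees of freedom was 2.54 and 2.65 within the groups and 22.5 to 24.1 between them. The first principal component of the NGP libraries held 61.0% of the variance and separated the treatments, and the second held 20.7% and separated the DMSO libraries from each other. The shares of mitochondrially encoded counts were 19.01% and 19.04% with DMSO and 20.26% and 21.08% with JSK591, and reads with several alignments were 20.91% and 21.38% against 22.0% and 21.77%. Defining transcripts of the noradrenergic lineage were abundant in all 4 libraries, with 739.9 CPM of PHOX2A, 663 of HAND2 and 605 of GATA3 as DMSO means, whereas TH and DBH, enzymes of noradrenaline synthesis, stood at 0.762 and 0.284 CPM. None of 7 blood markers passed the filter on low counts, and 4 epithelial markers summed to 2.83 and 3.30 CPM with DMSO. Fibroblast-type transcripts were present. Of 7 tested, 3 fell and 1 rose, their sum was 642 and 662 CPM with DMSO and 744 and 708 CPM with JSK591, and the most abundant was COL1A1 at 547 CPM. Of 4 Schwann cell markers tested the sum was 2.38 and 2.997 against 2.17 and 2.03 CPM. Of 149 protein-coding genes between HLA-F and TAPBP on chromosome 6, 128 were listed at 0 counts in all 8 libraries. They include genes that every cell uses, such as VARS1 and LSM2, and a 0 there is read here as no measurement.

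With JSK591, 3266 of 19395 genes tested in NGP were higher (16.8%) and 3755 were lower (19.4%), in the quasi-likelihood test of edgeR, adjusted by the method of Benjamini and Hochberg. A fold of at least 2 was reached by 476 of the higher genes (2.45% of those tested) and 217 of the lower ones (1.12%). Most of these larger changes were in genes of few counts. With at least 10 counts required in every one of the 8 libraries, the counts were 203 and 29. With libraries scaled by their total counts, the higher calls outnumbered the lower ones, 3586 against 3222. Called changes were mostly small, and 66.5% of the rises and 87.6% of the falls were under 1.5-fold. Genes that fell had a median level of 45.1 CPM with DMSO, and genes that rose one of 12.6 CPM. Of the 3266 rises 3256, and of the 3755 falls 3739, had both JSK591 libraries on that side of both DMSO libraries. Among all 19395 genes, called or not, 6271 lay above and 6390 below in this way. Groups that do not overlap, given below for single genes, therefore add little to a call. Here and below, "rose" and "fell" are used only of genes with an adjusted p under 0.05 in that test, changes are log2 changes with their SE, and CPM values are given for the 2 libraries of each group in replicate order. Counts over gene lists below are to be read beside the 17.8% of protein-coding genes that rose and the 24.7% that fell. The plot of all genes by level and change shows the immediate-early, chaperone and sterol transcripts on its lower side.

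**Figure D1:**
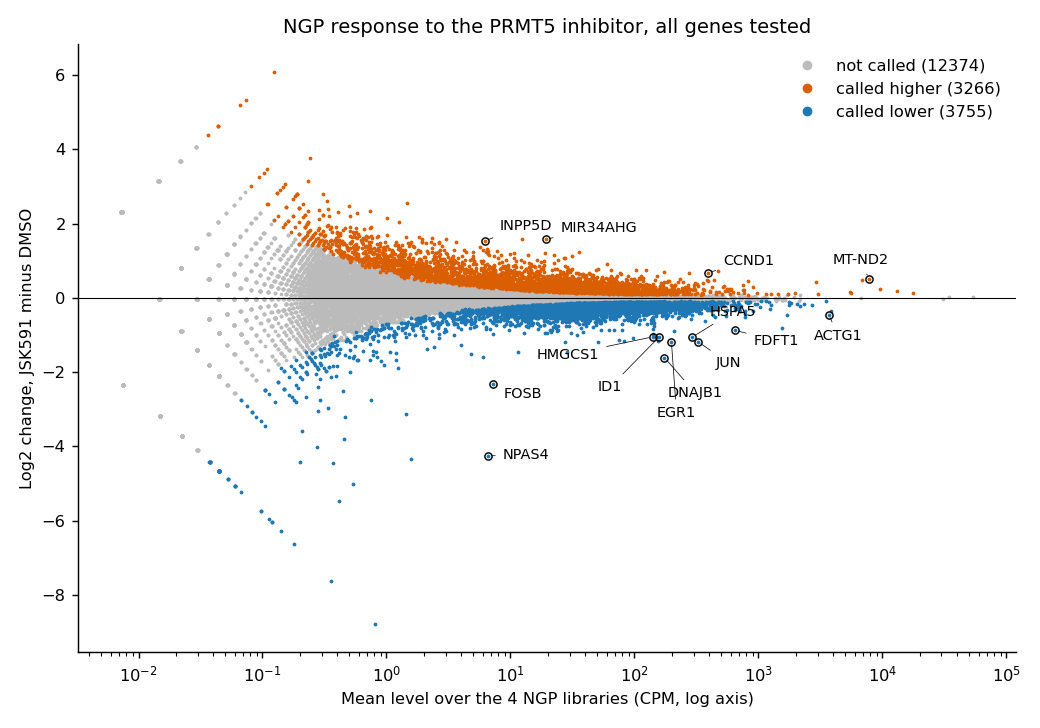
All 19395 genes tested in NGP, by the mean level over the 4 libraries (CPM, log axis) and the log2 change with JSK591. Genes called higher are orange (3266), genes called lower blue (3755) and the rest grey, and the labelled genes are members named in the text, with NPAS4 the lowest labelled point at -4.25.

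PRMT5 itself (ENSG00000100462.15, chromosome 14, 22920511 to 22929585, GRCh38) was not changed past the test. It stood at 61.9 and 62.5 CPM with DMSO and 59.05 and 60.5 with JSK591, a log2 change of -0.06 ± 0.05 (edgeR adjusted p = 0.381), and with the trend with GC content removed -0.11 passed (edgeR adjusted p = 0.0469). The inhibitor acts on the enzyme's activity, so the transcript does not check the treatment. Of 13 genes for PRMT5, its partners and the other arginine methyltransferases, 4 rose and 4 fell (with the rises at 2 without DMSO library 2 and 2 without JSK591 library 1), all within 1.5-fold. The substrate adaptor RIOK1, which brings non-Sm substrates to PRMT5, fell from 65.01 and 64.4 to 48.5 and 51.2 CPM, without overlap between the groups, while in CHLA-20 it gave 0.10, and the difference between the lines passed the test (-0.48 ± 0.07). A second adaptor, CLNS1A (pICln), which brings Sm proteins to PRMT5, fell by 0.16, and the main asymmetric methyltransferase PRMT1 fell by 0.21. PRMT6 and PRMT7 rose by 0.43 and 0.37. The other 2 rises, of the adaptor COPRS (0.22) and the methylthioadenosine-clearing enzyme MTAP (0.16), did not pass in every fit that left out 1 library. For COPRS, without DMSO library 2 or JSK591 library 1 it was 0.16 or 0.19 and did not pass, and for MTAP, without DMSO library 2 or JSK591 library 1 it was 0.09 or 0.12 and did not pass. WDR77 gave 0.16 ± 0.08 without passing. MAT2A makes S-adenosylmethionine, the methyl donor of these enzymes. It rose from 136 and 127 to 212 and 213 CPM, by 0.69 ± 0.04, more than in CHLA-20 (0.22, difference 0.48 ± 0.05).

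Among 31 AKT kinases, PI3K and mTOR components and their brakes, 10 rose and 6 fell, with the rises at 6 without DMSO library 1, 4 without DMSO library 2 and 4 without JSK591 library 1. AKT1 rose from 71.7 and 72.3 CPM with DMSO to 94.01 and 91.5 CPM with JSK591, whereas AKT2 gave -0.05 without passing, though -0.11 passed with the trend with GC content removed and -0.14 without DMSO library 1. INPP5D (SHIP1), a phosphatase that removes the PI3K product on which AKT docks, rose from 3.25 and 3.12 to 9.87 and 8.61 CPM. Its rise was 1.54 ± 0.13, larger than in CHLA-20 by 0.61 ± 0.19. Over the 31 genes 32.3% rose and 19.35% fell, beside 17.8% and 24.7% of protein-coding genes. The mTOR partners DEPTOR and MLST8 fell by 0.58 and 0.39, and the translation repressor EIF4EBP1 fell by 0.19. The AKT phosphatase PHLPP1 fell by 0.18 here and by 0.88 in CHLA-20, a difference of 0.69 ± 0.10. Its NGP call was lost in 5 of 17 alternative settings of the analysis, among them leaving out 1 library, where without DMSO library 2 or JSK591 library 2 it was -0.18 or -0.12 and did not pass.

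Most immediate-early genes, which cells transcribe within minutes of a signal and whose products are mostly transcription factors, were lower with JSK591. Of 31 tested, 21 fell and 3 rose, with a median log2 change of -0.63 beside 0.00 over all genes, and their summed level went from 1978 and 2093 CPM to 1189 and 1197 CPM. NPAS4, a neuronal transcription factor induced by calcium entry (ENSG00000174576.9, chromosome 11, 66421004 to 66426707), stood at 12.2 and 12.9 CPM with DMSO and at 0.808 and 0.500 CPM with JSK591. Its change of -4.25 ± 0.18 was the largest fall among coding genes with a mean of at least 1 CPM. FOSB, a partner of JUN in the AP-1 factor (chromosome 19, 45467995 to 45475179), was at 11.2 and 12.8 and then 2.31 and 2.53 CPM, a change of -2.31 ± 0.14. For both genes each JSK591 library lay below each DMSO library.

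The zinc finger factors of the EGR family, which signals through the MAP kinase pathway induce, all fell. EGR1 (chromosome 5, 138465490 to 138469315) was at 273 and 278 CPM with DMSO and 124 and 119.8 CPM with JSK591 (-1.18 ± 0.04). EGR2 was at 7.72 and 6.44 and 2.77 and 2.18 CPM, and EGR3 at 1.82 and 1.71 and 0.722 and 0.529 CPM. EGR4, at a DMSO mean of 0.807 CPM, fell by 1.61 ± 0.44, though without DMSO library 2 it was -1.39 and did not pass. The groups did not overlap for any of the 4 genes. The AP-1 subunit JUN was the most abundant factor in the list and fell from 439 and 464 to 198 and 201 CPM, and FOS from 114 and 115 to 50.2 and 53.3 CPM. The synaptic immediate-early gene ARC fell by 1.15 ± 0.04 from 215 CPM, and the MAP kinase phosphatase DUSP1 by 0.87 ± 0.05. KLF6, a growth-restraining zinc finger factor, went from 69.96 and 70.3 to 30.7 and 31.3 CPM. Members that rose were FOSL2, an AP-1 subunit (0.69 ± 0.08), ZFP36L1, which destabilises AU-rich messages (0.65 ± 0.16), and IER5 (0.43 ± 0.06).

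In CHLA-20, 12 of the 31 fell and 1 rose, beside 22.4% and 16.9% of all genes. FOS fell more there than in NGP (-2.34), by a difference of 1.19 ± 0.11. The effect was lower in NGP for EGR1, ARC, DUSP1 and CYR61, by -0.94 ± 0.07, -0.84 ± 0.06, -0.43 ± 0.08 and -1.04 ± 0.23. JUN gave -1.18 in NGP and -1.09 in CHLA-20, with a difference of -0.09 ± 0.06 that did not pass. Over all genes the effect was higher in NGP than in CHLA-20 for 2950 (15.2%) and lower for 2418 (12.5%), which is the background for each such count below. With the trend with GC content removed, the effect differed between the lines for 5355 genes, beside 5368 in the main fit. These totals do not show which single genes kept their call, and values per list and gene under that setting are not given here. That trend ran in opposite directions in the 2 lines, as given below. The plot of single genes by library shows these levels.

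**Figure D2:**
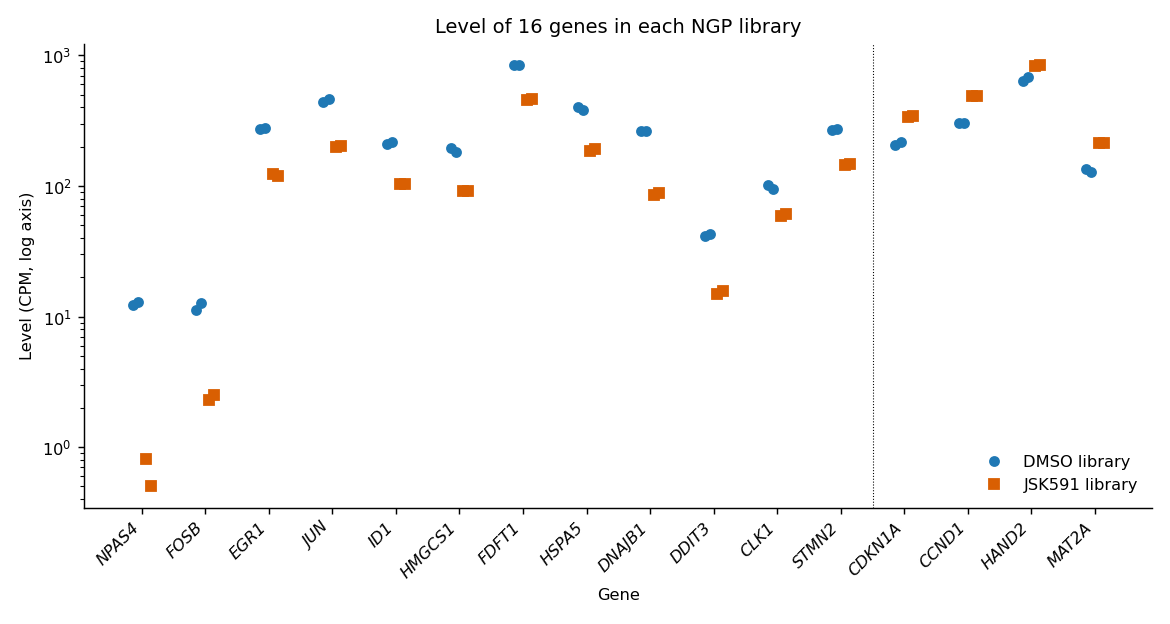
Level (CPM, log axis) of 16 named genes in each NGP library, 2 DMSO libraries in blue and 2 JSK591 libraries in orange. For every gene shown that fell, both orange points lie below both blue points, NPAS4 at 0.808 and 0.500 against 12.2 and 12.9 CPM, and for the 4 genes on the right, which rose, above them.

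The promoter of EGR1 is shown because the list holds targets of serum response factor, which binds the CArG box. The stretch runs from 150 bases before the start to the base before it (RefSeq, GRCh38.p14, chromosome 5, 138465329 to 138465478, plus strand), with its 2 CArG boxes in capitals.
EGR1: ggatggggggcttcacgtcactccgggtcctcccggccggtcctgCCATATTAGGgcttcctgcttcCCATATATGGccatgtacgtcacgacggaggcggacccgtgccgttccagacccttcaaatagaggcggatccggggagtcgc
In RefSeq windows of 250 bases before to 50 after the start, a CArG box was present in 2 of 24 immediate-early promoters (8.33%), EGR1 and SRF, and in 0.992% of the promoters of 12293 tested genes. The cyclic AMP response element TGACGTCA, searched as a palindrome that covers both strands, was in 3 of the 24 (JUND, MAFF and DUSP1) and in 3.16% of tested promoters. SRF itself, at 114 CPM, fell by 0.23 ± 0.04.

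Genes of BMP and TGF-beta signalling included many falls too. Of 20 tested, 10 fell and 1 rose, with a median of -0.20. ID1, one of the inhibitors of helix-loop-helix differentiation factors, was at 209 and 217 CPM with DMSO and 103 and 103 CPM with JSK591. ID2, ID3 and ID4 fell by 0.63 ± 0.04, 0.58 ± 0.04 and 0.77 ± 0.06. The inhibitory SMAD7 fell by 0.85 ± 0.05 against 0.21 in CHLA-20, and the pseudoreceptor BAMBI went from 20.8 and 20.7 to 12.9 and 12.8 CPM in NGP while it rose in CHLA-20 (0.64), a difference of -1.34 ± 0.13. All 4 ID genes and SMAD7 had non-overlapping groups. The receptor TGFBR1 was the member that rose (0.22).

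Of 22 genes of the YAP and SRF group, which holds YAP1, WWTR1, TEAD1 and cytoskeletal or YAP-driven genes, 7 fell and 1 rose. The cytoplasmic actins were among the largest losses in absolute level of all genes: ACTG1 went from 4164 and 4339.5 to 3068 and 3171 CPM and ACTB from 1953 and 1998 to 1449 and 1409 CPM. ACTB rose slightly in CHLA-20 (0.10), and the difference was -0.57 ± 0.05. CYR61 (CCN1), a secreted matrix protein, fell from 16.8 and 17.2 to 6.32 and 5.998 CPM, the actin-binding CNN2 and VCL by 0.52 and 0.31, and tissue factor F3, at 2.29 CPM, rose by 0.51 ± 0.17, though without DMSO library 2 or JSK591 library 2 it was 0.40 or 0.41 and did not pass. YAP1 itself had a DMSO mean of 0.0448 CPM. Of 16 ERK-pathway feedback genes, 6 rose, 1 fell and 9 did not pass. CCND1 (cyclin D1) rose from 301 and 306 to 488 and 487 CPM, while the phosphatase DUSP5, at 0.822 CPM, fell by 1.56 ± 0.40. In CHLA-20 12 of the 16 rose and 0 fell, and the effect was lower in NGP for 8 members and higher for 4.

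Cholesterol synthesis runs from acetyl-CoA through mevalonate to squalene, and from squalene through lanosterol to cholesterol. SREBP factors drive the genes of both arms when membranes hold little sterol. Of 9 genes of the mevalonate arm 8 fell and 1 rose (median -0.51), and of 12 genes of the squalene-to-cholesterol arm 10 fell and 1 rose (median -0.39). In CHLA-20 the counts were 3 lower and 1 higher, and 4 and 1. The difference between lines was lower in NGP for 5 and 10 members and higher for 0 and 0.

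In the first arm HMGCS1, which makes HMG-CoA (chromosome 5, 43289395 to 43313512), was at 195 and 183 CPM with DMSO and 91.7 and 90.97 CPM with JSK591. The groups did not overlap. IDI1, MVD and MVK fell by 0.86 ± 0.05, 0.80 ± 0.06 and 0.51 ± 0.06, while PMVK, the kinase between MVK and MVD, rose by 0.27 ± 0.10, a call lost in 9 of 17 alternatives. In the second arm, FDFT1 (squalene synthase) was the most abundant member and went from 838 and 844 to 456 and 463 CPM, and MSMO1, a sterol demethylase, from 102 and 103 to 45.3 and 47.7 CPM. SQLE, a rate-limiting enzyme of cholesterol synthesis, fell by 0.55 ± 0.04 in NGP and gave 0.03 in CHLA-20 (difference -0.58 ± 0.05). TM7SF2, a sterol reductase, rose by 0.21 ± 0.08, a call also lost in 9 of 17. Left out one at a time, any NGP library ended both calls, with values of 0.22 to 0.28 for PMVK and 0.19 to 0.22 for TM7SF2.

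Among 17 SREBP regulators, sterol transporters and LXR genes, 9 fell and 1 rose. The SREBP anchor INSIG1 fell by 0.60 ± 0.05, and MYLIP, a ubiquitin ligase that lowers lipoprotein uptake, by 0.60 ± 0.10. SREBF2, the factor for sterol genes and the most abundant member, fell by 0.17 ± 0.04. The protease MBTPS1, which cuts SREBP, rose by 0.13 ± 0.04, a call lost in 7 of 17 alternatives, also without any single NGP library (0.10 to 0.13). Of 14 fatty acid synthesis genes, 9 fell and 0 rose. ACSS2, which makes acetyl-CoA from acetate, went from 37.7 and 38.3 to 17.5 and 16.1 CPM, ACSL3 fell by 0.59 ± 0.04, and the desaturases FADS1 and SCD fell by 0.40 and 0.35. The word TCACCCCAC of the sterol regulatory element was in 0 of 16 promoters of the 2 arms and in 0.391% of tested promoters, on either strand.

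Many chaperones of the cytosol and of the endoplasmic reticulum moved in opposite directions in the 2 lines. Of 31 unfolded protein response and reticulum chaperone genes, 16 fell and 2 rose in NGP (median -0.15), and in CHLA-20 4 fell and 19 rose (median 0.16). The effect was lower in NGP for 21 members and higher for 2, and 10 members fell in NGP and rose in CHLA-20. HSPA5 (BiP), the main chaperone of the reticulum (chromosome 9, 125234853 to 125241330), was at 404 and 382 CPM with DMSO and 184 and 193 CPM with JSK591. In CHLA-20 it rose by 0.58, so that the lines differed by -1.64 ± 0.05 (edgeR adjusted p = 1.42e-33). CALR, a lectin chaperone, went from 375 and 378 to 276 and 287 CPM in NGP against 0.35 in CHLA-20.

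Among the regulators of this response XBP1, whose message is spliced by the sensor IRE1, was at 114 and 112 and 78.2 and 79.4 CPM, and ATF6 fell by 0.37 ± 0.04. The gene of the sensor IRE1, ERN1, gave -0.12 ± 0.07 without passing, though -0.16 passed with the GC trend removed. HERPUD1, which serves the degradation of misfolded proteins, fell by 0.67 ± 0.04, and the co-chaperones DNAJC3 and DNAJB9 by 0.53 ± 0.06 and 0.51 ± 0.07. Members that rose were EDEM3, which trims mannose from glycoproteins (0.57 ± 0.06), and the ubiquitin ligase SYVN1 (0.19 ± 0.05), for which without DMSO library 1 or JSK591 library 1 it was 0.13 or 0.16 and did not pass.

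Promoters of HSPA5 and XBP1 are shown with the ERSE, the element read by ATF6 and XBP1, in capitals. It was searched as CCAAT and CCACG spaced by 9 bases, on both strands. The stretches end at the base before the start (RefSeq, GRCh38.p14, minus strand, chromosome 9, 125241344 to 125241493, and chromosome 22, 28800570 to 28800719).
HSPA5: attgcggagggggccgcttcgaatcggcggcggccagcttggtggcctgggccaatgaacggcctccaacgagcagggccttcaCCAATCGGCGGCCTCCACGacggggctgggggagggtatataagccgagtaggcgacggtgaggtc
XBP1: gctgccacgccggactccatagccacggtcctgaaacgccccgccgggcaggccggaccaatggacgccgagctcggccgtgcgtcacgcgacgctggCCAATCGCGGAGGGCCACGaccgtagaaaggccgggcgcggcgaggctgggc
The element was in 6 of 29 promoters of the list (20.7%) and in 0.122% of the promoters of tested genes. The 6 were those of HSPA5, HSP90B1, CALR, CANX, XBP1 and CRELD2. The first 5 fell in NGP, by 1.06, 0.32, 0.42, 0.16 and 0.52, and CRELD2 gave 0.17 without passing.

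Of 28 heat shock proteins and cytosolic chaperones, 13 fell and 3 rose in NGP. In CHLA-20 16 rose and 9 fell, and the effect was lower in NGP for 16 members. DNAJB1, which delivers clients to HSP70 (chromosome 19, 14514770 to 14529770), was at 263 and 263 CPM with DMSO and 84.7 and 88.1 CPM with JSK591, while it rose by 0.39 in CHLA-20. Its difference of -1.99 ± 0.06 was among the 10 lowest of the genes called in NGP with a mean of at least 1 CPM in both lines. Outside the list, the inducible HSP70 gene HSPA6, among the 15 largest coding falls, went from 2.27 and 1.62 to 0.289 and 0.764 CPM, a fall that did not pass in DESeq2 (adjusted p = 0.15). Its close relatives HSPA1A and HSPA1B were among the genes listed at 0, so its counts are uncertain. The small chaperone HSPB1 fell by 0.75 ± 0.06, the mitochondrial HSPE1 by 0.55 ± 0.08 and the HSP70 partner BAG3 by 0.68 ± 0.18. For BAG3, without DMSO library 2 it was -0.52 and did not pass. The abundant HSP90AB1 fell from 2862 and 2872 to 2469 and 2541 CPM. Among the members that rose, DNAJA1, a partner of HSP70, did so by 0.29, and the HSP90 partners STIP1 and AHSA1 by 0.09 and 0.10, calls lost in 14 of 17 and in 13 of 17 alternatives. Each single library left out, of either line, ended the calls of STIP1 (0.06 to 0.09) and AHSA1 (0.05 to 0.13).

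CHORDC1, an HSP90 partner, fell from 52.8 and 46.6 to 35.2 and 35.5 CPM, and its promoter is shown because it holds a run of heat shock elements, alternating GAA and TTC blocks. The element was searched as GAANNTTCNNGAA and TTCNNGAANNTTC, and 3 overlapping matches form the capitals (RefSeq, GRCh38.p14, chromosome 11, 90223050 to 90223199, minus strand).
CHORDC1: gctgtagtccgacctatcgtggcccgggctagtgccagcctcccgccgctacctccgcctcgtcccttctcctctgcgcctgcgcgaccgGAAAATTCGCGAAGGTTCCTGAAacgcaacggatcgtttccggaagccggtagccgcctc
Such a match was in 5 of 25 promoters of the list (20%) and in 0.342% of tested promoters. Its bearers moved differently: CHORDC1 and SERPINH1 fell (-0.49 and -0.16), DNAJA1 rose, and HSPA8 gave -0.07 without passing in the main test, although it passed in 5 of 17 alternatives, at -0.11 without DMSO library 1. DNAJB6 did not pass.

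**Figure D3:**
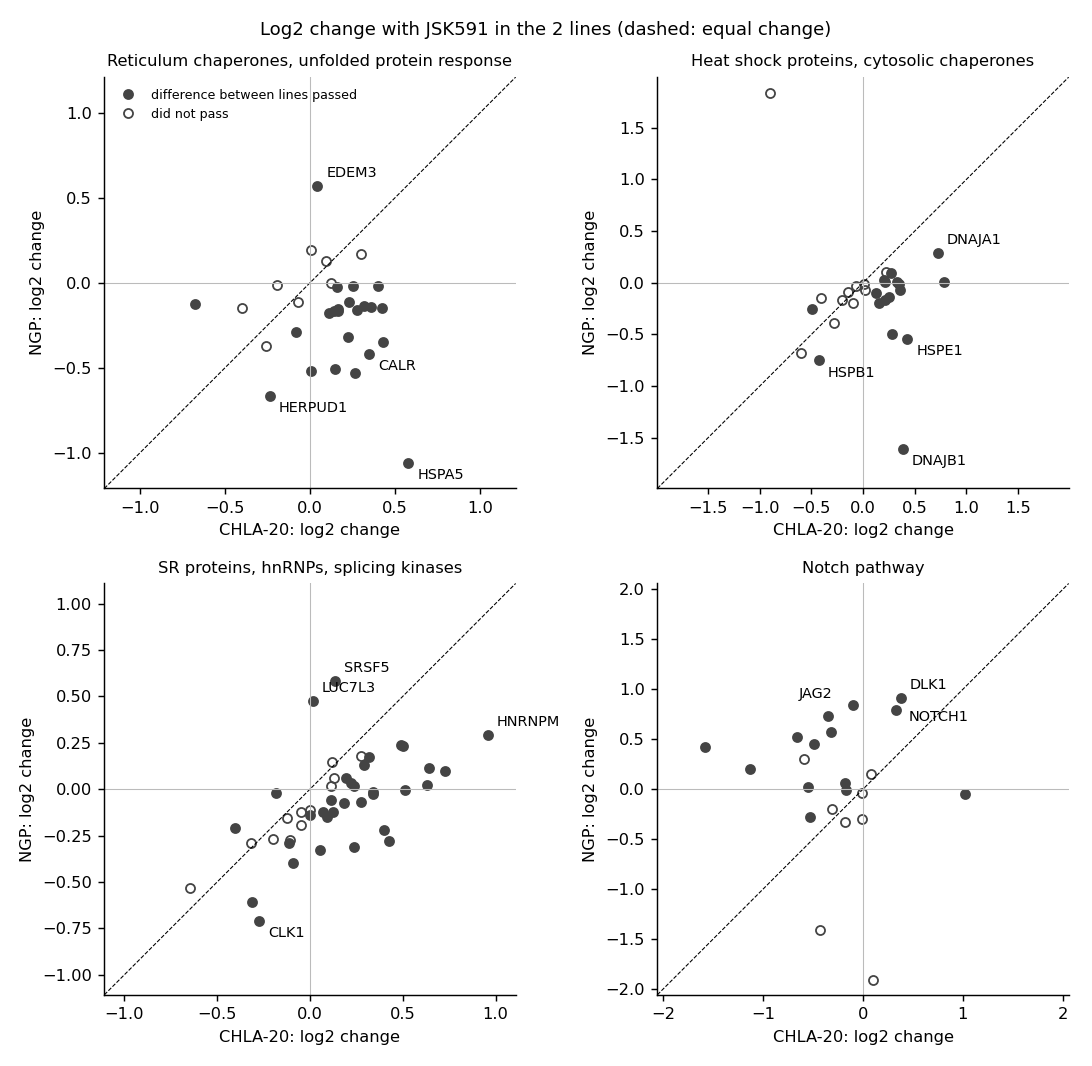
Log2 change with JSK591 in NGP (vertical axis) against CHLA-20 (horizontal axis) for the members of 4 gene lists, each in its own panel, with filled points where the difference between lines passed the test. In the panel of the reticulum list 21 members have a lower effect in NGP, HSPA5 farthest at -1.06 against 0.58.

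Genes of amino acid supply fell with the reticulum chaperones, but in both lines. Of 35 genes of the amino acid response, which is driven by ATF4, a factor translated under amino acid shortage or reticulum stress, 24 fell and 1 rose in NGP, and 26 fell and 2 rose in CHLA-20, with 22 falling in both. DDIT3 (CHOP), a death-promoting factor (chromosome 12, 57516588 to 57521737), was at 41.2 and 42.9 and 14.96 and 15.8 CPM, and PPP1R15A, which restarts translation, at 45.3 and 45.7 and 22.5 and 23.2 CPM. ATF4 itself fell from 526 and 534 to 359.9 and 382 CPM. The amino acid exchangers SLC3A2 and SLC7A11 fell by 0.76 ± 0.04 and 0.72 ± 0.09, and the gluconeogenic PCK2 by 0.61 ± 0.05. The lipoprotein receptor VLDLR rose (0.17), though without DMSO library 2 or JSK591 library 1 it was 0.12 or 0.13 and did not pass. DDIT3 shares 39.6% of its exonic bases with another gene, so part of its counts may belong there.

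Of 19 cytosolic aminoacyl-tRNA synthetases, which charge tRNAs for translation, 15 fell and 0 rose in NGP, and 7 and 4 did in CHLA-20. The falls were small. TARS, for threonine, went from 264 and 259 to 195 and 201 CPM, SARS fell by 0.40 ± 0.04, QARS by 0.37 ± 0.04 and YARS by 0.33 ± 0.04. The most abundant, IARS, fell by 0.11 ± 0.04, and without JSK591 library 2 it was -0.10 and did not pass. ATF4 targets carry the CARE, searched as TGATGNAA on both strands. It was in 6 of 16 synthetase promoters (37.5%), in 4 of 28 promoters of the amino acid response list (14.3%) and in 1.81% of tested promoters. DDIT3 and PPP1R15A had no match in these windows. The TARS promoter is shown with its match, on the reverse strand and just after the start, in capitals (RefSeq, GRCh38.p14, chromosome 5, 33440815 to 33440974, plus strand).
TARS: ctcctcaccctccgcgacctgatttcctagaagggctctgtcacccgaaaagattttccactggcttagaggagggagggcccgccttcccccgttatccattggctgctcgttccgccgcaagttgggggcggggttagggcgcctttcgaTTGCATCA
Of the 6 synthetase genes with the match, AARS, CARS, IARS, NARS and TARS fell. The calls were lost in 2 of 17 alternatives for CARS and in 4 of 17 for NARS. MARS gave -0.07 ± 0.04 without passing, though -0.12 passed with the GC trend removed.

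Genes of the p53 pathway moved both ways. Of 41 regulators and targets, 17 rose and 6 fell (median 0.11), 14 of the rises being shared with CHLA-20. MDM2, amplified in this line, went from 482 and 454 to 589.9 and 579 CPM, a smaller rise than in CHLA-20 (-0.36 ± 0.06). CDKN1A (p21), the inhibitor of cyclin-dependent kinases (chromosome 6, 36676460 to 36687339), was at 207 and 216 and 336 and 342 CPM. MIR34AHG, the host of a p53-induced microRNA, went from 10.1 and 9.26 to 30.98 and 26.9 CPM, and PHLDA3, which competes with AKT for membranes, rose by 0.56 ± 0.07. The members that fell were FBXW7 (-0.43), PPM1D (-0.30), PLK3 (-0.22), CCNG1 (-0.19), PLK2 (-0.17) and BTG2 (-0.16). PLK2 rose in CHLA-20 (0.63), a difference of -0.81 ± 0.07. Some of the smaller NGP falls did not pass in every fit that left out 1 library. For PLK3, without DMSO library 2 or JSK591 library 1 or JSK591 library 2 it was -0.16 or -0.21 or -0.25 and did not pass, for PLK2, without DMSO library 1 or JSK591 library 1 it was -0.14 or -0.16 and did not pass, and for BTG2, without DMSO library 2 or JSK591 library 2 it was -0.14 or -0.14 and did not pass.

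Of 24 cyclins, kinases and inhibitors of the G1 phase, 10 rose and 4 fell, with the rises at 6 without DMSO library 2 and 6 without JSK591 library 1. Beside CCND1 and CDKN1A, cyclin E1 (CCNE1) went from 12.01 and 12.8 to 18.8 and 20.9 CPM and the repressor E2F7 rose by 0.53 ± 0.07. The inhibitor CDKN1B (p27) fell from 43.2 and 42.7 to 27.98 and 30.7 CPM and RB1 by 0.33 ± 0.05. Replication genes were split, with 9 of 43 higher and 16 lower. PCNA, FEN1 and POLE rose by 0.40 ± 0.04, 0.43 ± 0.05 and 0.36 ± 0.04, while the primase subunit PRIM2 and the origin factor ORC1 fell by 0.57 ± 0.06 and 0.52 ± 0.05, and the helicase subunit MCM4 went from 642 and 651 to 561 and 569.9 CPM. In CHLA-20 23 rose and 3 fell, and the effect was lower in NGP for 23 members and higher for 2.

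Mitotic genes fell in 23 of 42 cases and rose in 5, with the rises at 3 without the filter on low counts and 2 with DESeq2. These rises were also fewer in some fits that left out 1 library. TOP2A, which untangles chromosomes, went from 1050.3 and 996 to 806 and 799 CPM and cyclin A2 (CCNA2) from 144 and 141 to 104 and 108 CPM. The kinetochore genes NDC80 and TTK fell by 0.39 and 0.37, whereas their partners NUF2 and SPC24 rose by 0.34 ± 0.05 and 0.26 ± 0.06. Of 36 homologous recombination, Fanconi and other repair genes, 13 fell and 9 rose. FANCE, of the Fanconi core complex, fell from 66.5 and 67.4 to 40.6 and 42.6 CPM, BARD1, the BRCA1 partner, by 0.47 ± 0.06, and XRCC2 rose by 0.48 ± 0.05. RAD51B fell by 0.51. Of 50 histone genes of the replication-dependent clusters, 9 fell and 6 rose, with the falls at 4 under the stricter filter on low counts, 4 without DMSO library 2, 5 without JSK591 library 2 and 3 with DESeq2. The falls included the linker histones HIST1H1D (1.58 and 1.56 to 0.549 and 0.588 CPM), HIST1H1E and HIST1H1B (a call lost in 4 of 16 alternatives), and the rises HIST1H2BK (0.85 ± 0.11) and HIST1H2BD (0.58 ± 0.08). Over the 50 histone genes 18% fell and 12% rose, beside 24.7% and 17.8% of protein-coding genes. Most transcripts of these genes carry no poly(A) tail and near-identical copies share reads, so their levels after enrichment of messenger RNA are uncertain.

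MYCN, the amplified driver of this line (chromosome 2), was among the 10 largest losses in absolute level. It went from 2256 and 2389 to 2021 and 2001 CPM, a log2 change of -0.21 ± 0.04. DESeq2 gave -0.22 with an adjusted p of 0.564, so this call depends on the tool. Of 22 genes of the MYC network, 7 fell and 5 rose, with the rises at 3 with DESeq2 and fewer in some fits that left out 1 library. CAD, which starts pyrimidine synthesis, and NBAS, a neighbour of MYCN that is co-amplified in some tumours, fell by 0.35 ± 0.04 and 0.40 ± 0.04. MYCL rose by 0.37 ± 0.10 in NGP and fell in CHLA-20 (-1.71), and MGA and MNT, which bind MAX in place of MYC, rose by 0.36 and 0.23. For MYCL, without DMSO library 1 it was 0.27 and did not pass, and for MNT, without DMSO library 1 or JSK591 library 1 it was 0.15 or 0.17 and did not pass. Ribosome biogenesis genes had 3 of 38 higher and 7 lower, and cytosolic ribosomal proteins 4 of 50 higher and 3 lower (with the rises at 8 with total count scaling, 7 under the stricter filter on low counts, 2 without DMSO library 1 and 2 without JSK591 library 2), each share below that of all genes.

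Many genes of splicing, the process PRMT5 serves most directly, had a lower effect in NGP than in CHLA-20. Of 45 SR proteins, their kinases and hnRNPs, 20 fell and 9 rose in NGP, against 10 and 26 in CHLA-20, and the effect was lower in NGP for 29 and higher for 4. The 44.4% that fell stood beside 24.7% of protein-coding genes, and beside 36.2% and 43.8% in the 2 highest of 5 parts by level. The CLK kinases, which phosphorylate SR proteins and keep nuclear introns of their own, fell. CLK1 was at 102 and 95.4 and 59.4 and 61.1 CPM and CLK4 at 38.5 and 39.6 and 26.7 and 24.5 CPM, and CLK3 fell by 0.53 ± 0.04. The groups did not overlap for any of them. SRSF5 rose from 124 and 121 to 179.7 and 188 CPM, and LUC7L3, a component of the U1 particle, from 368 and 365 to 509 and 511 CPM. HNRNPM rose by 0.29 ± 0.04, less than in CHLA-20 (0.96). The scaffold SRRM2 and the U1-linked RBM25 fell by 0.29 and 0.40.

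Of 39 spliceosome components, 16 fell and 3 rose in NGP, while in CHLA-20 9 fell and 18 rose. The 41.0% that fell in NGP stood beside 24.7% of protein-coding genes, and lay between the 36.2% and 43.8% of the 2 highest parts by level. The NGP rises numbered 1 without the filter on low counts, 1 with the GC trend removed and 1 with DESeq2, and were fewer in some fits that left out 1 library. The minor spliceosome proteins SNRNP48 and ZRSR2 fell by 0.58 ± 0.06 and 0.53 ± 0.09. SF3B3, of the branch site complex, went from 284 and 279 to 224 and 224 CPM and rose in CHLA-20 (0.24). PRPF3 rose by 0.16 ± 0.04, less than in CHLA-20 (0.81), and without DMSO library 1 or JSK591 library 1 it was 0.13 or 0.12 and did not pass. The Sm and SMN complex genes, whose products assemble the particles, had 2 of 24 higher and 6 lower. The 25% that fell lay near the 24.7% of protein-coding genes, and 8.33% rose beside 17.8%. LSM10, of the U7 particle, fell by 0.39 ± 0.07, DDX20 by 0.28 ± 0.05, and GEMIN4 and GEMIN6 rose by 0.31 and 0.35. The counts per gene do not separate spliced from unspliced messages, so intron retention is not measured here.

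**Figure D4:**
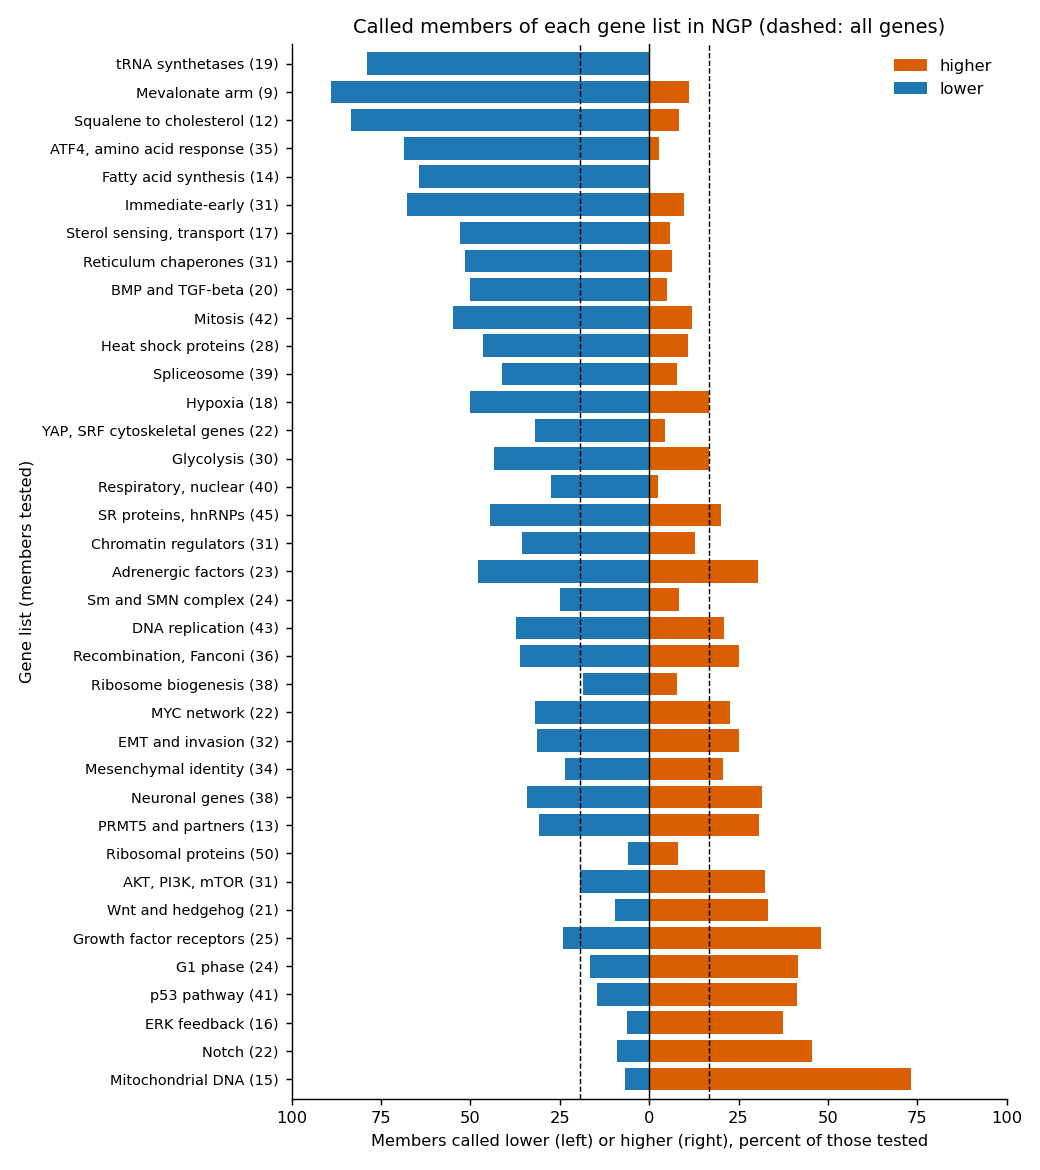
Share of tested members called higher (right, orange) and lower (left, blue) in NGP for the gene lists described, in percent. Dashed lines mark the shares over all genes, 16.8% and 19.4%, and the cholesterol, tRNA synthetase, ATF4 and immediate-early lists reach farthest to the left. Among protein-coding genes alone the shares were 17.8% and 24.7%.

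Lineage factors shifted within the noradrenergic programme. Of 23 adrenergic core factors, 11 fell and 7 rose. HAND2, a factor of sympathetic neurons, went from 638 and 688 to 836 and 838 CPM, and the zinc finger factor INSM1 rose by 0.47 ± 0.04. HAND2 fell in CHLA-20 (-0.55), and the difference passed (0.89 ± 0.05). The factors that fell included INSM2, HAND1 and GATA3, by 0.61 ± 0.04, 0.45 ± 0.04 and 0.36 ± 0.04. The noradrenaline transporter SLC6A2 was at 35.6 and 35.96 and 30.1 and 29.6 CPM in NGP, while it rose by 2.02 in CHLA-20, a difference of -2.28 ± 0.13. Among other secretory genes VGF and CHGB rose by 0.64 ± 0.06 and 0.38 ± 0.04.

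Of 38 neuronal differentiation genes, 12 rose and 13 fell, with the rises at 7 with the GC trend removed and 7 with DESeq2. The rises were also fewer in some fits that left out 1 library. STMN2, a microtubule regulator of growing axons, went from 267 and 271 to 144 and 146 CPM, its relative STMN4 fell by 0.63 ± 0.06, and STMN1 rose by 0.23 ± 0.04. The heavy neurofilament NEFH rose from 51.7 and 52.2 to 77.7 and 79.4 CPM, and the adhesion protein CNTN2 by 0.67 ± 0.05.

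Many receptor and Notch genes had a higher effect in NGP than in CHLA-20. Of 25 receptors of growth and neurotrophic factors, 12 rose and 6 fell, against 3 and 13 in CHLA-20, and the effect was higher in NGP for 13 and lower for 3. ALK, a receptor mutated in some neuroblastomas, went from 36.6 and 36.5 to 55.9 and 56.2 CPM, RET from 7.15 and 6.98 to 11.3 and 10.97 CPM and FGFR2 from 10.1 and 11.96 to 17.7 and 18.99 CPM. The groups were separate for each. FGFR4 fell from 17.1 and 17.02 to 9.18 and 8.61 CPM. ERBB3 had 34 counts in the DMSO and 4 in the JSK591 libraries.

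Of 22 Notch pathway genes, 10 rose and 2 fell in NGP, and 3 rose and 11 fell in CHLA-20, with the effect higher in NGP for 13 and lower for 1. Among receptors NOTCH1 went from 17.5 and 15.9 to 29.1 and 28.5 CPM and NOTCH3 rose by 0.52 ± 0.21, a call lost in 10 of 17 alternatives, also without any single NGP library (0.40 to 0.61). Among ligands JAG2 went from 10.5 and 9.80 to 18.4 and 17.96 CPM and the non-canonical DLK1 from 40.7 and 42.8 to 76.1 and 81.03 CPM. Among targets HES4 and NRARP rose by 0.73 ± 0.12 and 0.57 ± 0.07. MAML2, a coactivator, and RFNG, which glycosylates the receptors, fell by 0.29 and 0.28. For MAML2, without JSK591 library 1 it was -0.23 and did not pass. RBPJ, the DNA-binding factor of the pathway and its most abundant member, did not pass. In the Wnt and hedgehog list 7 of 21 rose and 2 fell, with the rises at 4 without the filter on low counts, 4 without DMSO library 1, 4 without DMSO library 2, 4 without JSK591 library 1 and 3 with DESeq2. SMO, the hedgehog transducer, rose by 0.58 ± 0.06, and the Wnt inhibitor DKK1 fell from 126 and 125 to 98.5 and 95.2 CPM while it rose in CHLA-20 (0.94).

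Of 32 genes of epithelial to mesenchymal transition and invasion, 10 fell and 8 rose. SNAI1, a repressor of cadherin genes, went from 130.1 and 136 to 64.9 and 61.3 CPM and the filament VIM from 165 and 164 to 116 and 115 CPM. The urokinase receptor PLAUR rose from 4.71 and 4.53 to 9.18 and 10.9 CPM, by 1.12 ± 0.11. In the mesenchymal identity list 7 of 34 rose and 8 fell, with the falls at 5 under the stricter filter on low counts. These shares, 20.6% and 23.5%, lay near the 17.8% and 24.7% of protein-coding genes. Collagens of basement membranes, COL4A1, COL4A2 and COL18A1, rose by 0.29, 0.27 and 0.35, as did COL6A3 (0.74), while COL6A1, COL6A2, COL11A1 and the basement membrane laminin LAMB1 fell by 0.45, 0.45, 0.20 and 0.40, the call of COL11A1 being lost in 5 of 16 alternatives. COL1A1 rose in NGP (0.22 ± 0.04) and fell in CHLA-20 (-0.57). CD44, at 0.583 CPM, fell by 1.84 ± 0.45.

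Mitochondrially encoded transcripts gave the largest gains in absolute level, beside their larger share of all counts given above. Of 15 tested, 11 rose and 1 fell, with the rises at 7 without DMSO library 2 and 7 without JSK591 library 2. MT-ND2, of complex I, went from 6339.5 and 6408 to 8868 and 9436 CPM, MT-ND1 from 5772 and 5782 to 7744 and 8336 CPM and MT-CO3 from 12338 and 12298 to 13470.0 and 14634 CPM, while the ribosomal RNA MT-RNR1 fell from 4239 and 4362 to 3276 and 3523 CPM. Of 40 nuclear-encoded respiratory subunits 11 fell (27.5%), a share near the 24.7% of protein-coding genes that fell. Only cytochrome c, CYCS, rose (0.27 ± 0.04), or 2.5% beside 17.8% of protein-coding genes. The falls numbered 7 with total count scaling and 17 with the GC trend removed. Of 30 glycolysis genes 13 fell and 5 rose, with the falls at 7 without DMSO library 2 and 8 without JSK591 library 2. ALDOC fell by 0.86 ± 0.06 and the lactate transporter SLC16A1 rose by 0.35 ± 0.04. In 18 genes of the hypoxia response 9 fell, VEGFA from 214 and 209 to 149.7 and 150.1 CPM, and 3 rose.

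Of 31 chromatin regulators, 11 fell and 4 rose. TET2, which oxidises methylcytosine, went from 48.9 and 47.1 to 30.6 and 27.99 CPM. Its effect was lower than in CHLA-20 by a difference of -0.79 ± 0.09. The histone methyltransferase KMT2D and the RNA-binding IGF2BP3 rose by 0.45 ± 0.04 and 0.54 ± 0.06. Zinc finger genes, 446 with ZNF symbols, had 97 higher and 74 lower, with the rises at 62 without DMSO library 2 and 55 without JSK591 library 1. Of 52 clustered protocadherins, which give neurons their surface identity, 9 rose and 0 fell, with the rises at 5 without the filter on low counts, 5 without DMSO library 1, 4 without DMSO library 2, 5 without JSK591 library 1, 4 without JSK591 library 2 and 2 with DESeq2. The 17.3% of protocadherins that rose lay near the 17.8% of protein-coding genes, and 0% fell beside 24.7%. Among the ZNF genes 21.75% rose and 16.59% fell. PCDHB15 rose by 1.10 ± 0.25, and members of the protocadherin clusters share sequence.

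Among all coding genes with at least 1 CPM, the 15 largest rises were led by KLHL31, a Kelch-family protein studied in muscle, from 0.388 and 0.360 to 1.79 and 1.53 CPM. SMOC1, a matrix protein that antagonises BMP, went from 1.01 and 0.749 to 2.97 and 2.56 CPM, the zinc finger gene ZNF594 from 1.88 and 1.89 to 5.37 and 5.32 CPM and the neurotensin receptor NTSR1 from 0.507 and 0.839 to 1.88 and 1.71 CPM. The groups did not overlap for these genes, as the rule required. Others were the interferon-linked EPSTI1 (1.45 ± 0.28), PROKR1, a receptor for prokineticins (1.45 ± 0.22), the leukotriene receptor LTB4R (1.38 ± 0.14), the ephrin EFNA2 (1.33 ± 0.24), ATOH7, a neurogenic factor of the retina (1.30 ± 0.25), BMP3 (1.29 ± 0.13), and the lectin pathway protease MASP2 (1.29 ± 0.17). Besides members already given, the 15 largest falls held GLIPR1, a p53-responsive gene (-1.60 ± 0.14), and RIPOR2, an inhibitor of RhoA (-1.32 ± 0.21).

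LincRNA and antisense genes rose more often than they fell. Of 1098 lincRNA genes tested, 231 rose (21.0%) and 38 fell (3.46%), and of 1303 antisense genes 254 rose (19.5%) and 61 fell (4.68%). Of 13953 protein-coding genes, 2481 rose (17.8%) and 3446 fell (24.7%). Processed pseudogenes fell more often than they rose, 109 (7.35%) against 59 (3.98%) of 1483, and of 57 snoRNA genes 6 fell and 5 rose. Whether the counting used strand is not stated, and reads of an antisense gene and its partner may not be told apart. Among the 823 lincRNA and 433 antisense genes that share no exonic base with another gene, 172 and 95 rose and 22 and 13 fell. LINC01355 went from 0.447 and 0.390 to 2.37 and 2.62 CPM and AC124944.3 from 0.328 and 0.659 to 2.02 and 2.09 CPM, and both differed from CHLA-20 (2.37 ± 0.33 and 2.60 ± 0.38). RNU5D-1, a U5 spliceosomal RNA, rose from 0.537 and 0.420 to 1.27 and 1.85 CPM, and its copies share sequence. GACAT3, a lincRNA near MYCN on chromosome 2, fell from 3.07 and 2.997 to 0.144 and 0.147 CPM. Fewer genes had any count with JSK591, 28474 and 27448, than with DMSO, 29398 and 30376.

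The direction of change went with properties of the genes. Among protein-coding genes split into 5 equal parts by GC content, the share that rose went from 13.97% in the part poorest in GC to 22.3% in the richest, and the share that fell from 30.2% to 17.3%. The median change ran from -0.06 in the poorest part to 0.04 in the richest, and in CHLA-20 the other way, from 0.03 to -0.18. By gene span the share that fell went from 18.6% in the shortest part to 30.7% in the longest. By level with DMSO it went from 3.58% in the lowest to 43.8% in the highest, where 15.4% rose. In the second-lowest part, between 1.84 and 12.8 CPM, 23.2% rose and 12.5% fell, so coding genes of low level also rose more often than they fell. These are descriptions with no test, and larger counts allow smaller changes to pass.

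**Figure D5:**
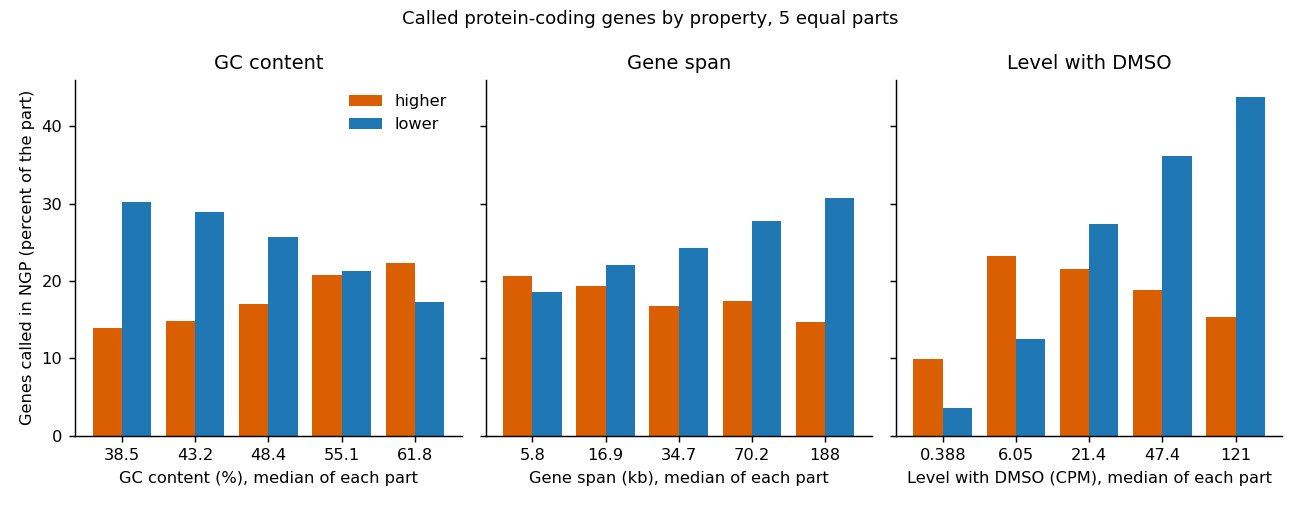
Share of protein-coding genes called higher (orange) and lower (blue) in NGP, in percent, in 5 equal parts by GC content, gene span and level with DMSO. With rising GC the lower share falls from 30.2% to 17.3%, and with rising level it climbs from 3.58% to 43.8%.

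The NGP and CHLA-20 contrasts share no library. Of the NGP rises, 34.0% were also higher in CHLA-20 and 14.1% lower there, and of the NGP falls 46.4% were lower and 9.93% higher. Seen from CHLA-20, 33.8% of its higher and 40.0% of its lower genes moved the same way in NGP. Of the 7021 genes called in NGP, the effect of 3247 differed between the lines, and 834 were called in opposite directions. The lines grew in different media, so line and medium cannot be told apart. Genes with a far higher effect in NGP included CSPG4, a proteoglycan of glial and pericyte precursors (0.88 in NGP, -1.21 in CHLA-20, and in NGP without JSK591 library 2 it was 0.63 and did not pass), and LBX2-AS1 (1.00 and -1.28). Genes with a far lower effect included CNTN6, a neuronal adhesion protein (-0.69 and 1.71), the small GTPase RERG (-0.36 and 1.37) and the protocadherin PCDH7 (-0.25 and 1.10).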

How the data were processed

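Messenger RNA from 2 neuroblastoma lines was sequenced on DNBseq, per the labels' protocols. The authors deposited whole-number counts per gene for each library, made with STAR and HTSeq on GRCh38 (hg38), per the submitters' processing notes, which also name DESeq2. Versions, annotation and strand setting are not given in the sources used here. All 58721 gene identifiers match GENCODE 29, from which positions and exon overlaps were taken. Rows of unassigned reads were left out, of which reads with several alignments were 20.91% to 22.0% of the NGP totals.

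Groups came from the labelled line and treatment. All 8 libraries in 4 groups were fitted with edgeR 4.0.16 (TMM scaling, filterByExpr, glmQLFit and glmQLFTest) in R 4.3.3, and p-values were adjusted by Benjamini-Hochberg over the 19395 genes tested, with a threshold of 0.05. The contrasts were JSK591 against DMSO in NGP, the same in CHLA-20, and their difference. CPM values are counts per 1000000 of the TMM-scaled library size. An SE is the absolute log2 change divided by the square root of the F statistic. The common biological coefficient of variation was 2.76%. The NGP libraries held 33188542 to 33590507 counts, and a count of 3 in 1 of them is 0.0893 to 0.0904 CPM.

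The members and lists were chosen with earlier results of these data known. The text names PRMT5, its partners and the regulators of the p53 and AKT pathways. It also names the 15 largest coding and 8 largest other changes each way with a mean of at least 1 CPM and separate groups. Further named are the 10 largest differences in CPM each way. The 10 largest differences between lines each way are those among genes called in NGP with a mean of at least 1 CPM in both lines. Per list it names up to 6 largest called changes, the most abundant member and those that moved against the majority. AARS, AC008164.1, AC104623.2, ARC, ATF6, BEST3, CALR, COL11A1, COL6A1, COL6A2, CRELD2, DBH, DDX1, DNAJB6, DUSP1, ERN1, FOS, HSP90B1, HSPA8, LAMB1, MARS, MYCNOS, MYRFL, NARS, SERPINH1, SRF, TH and YAP1 fall outside this rule and were chosen after their values were seen. Some genes are not reported here, although they enter the counts over lists. Other genes cover part of the exons of DDIT3 (39.6%), PROKR1 (38.1%), WDR77 (36.5%), LBX2-AS1 (31.2%), PRMT5 (27.1%) and VIM (24.4%), and counting may divide such reads. Promoters came from RefSeq (GRCh38.p14) and 12293 of the tested genes had one. Motifs were matched letter by letter.

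Alternatives were total count scaling, DESeq2 1.42.0, no filter, at least 10 counts in every library, only the NGP libraries, a replicate block, removal of the trend with GC content by lowess, both together, and leaving out each library.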

Additional observations from a re-analysis of the deposited data

Results flagged for a closer look

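The genes below were picked because the test of the difference between the lines passed. They were also picked for calls in opposite directions in the 2 lines, or for being among the largest differences between lines. Passing the test and opposite signs therefore follow from the choice and are not findings about these genes. Of the 7021 genes called in NGP, 834 (11.9%) were called the opposite way in CHLA-20. Values are log2 effects in NGP minus those in CHLA-20. The lines also differed in medium, and the cause was not tested. The trend with GC content ran in opposite directions in the 2 lines, and values of these differences with it removed are not given here.

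Among chaperones of the reticulum the difference was -1.64 for HSPA5, -0.80 for DNAJC3, -0.77 for CALR, -0.54 for HSP90B1, -0.37 for the collagen chaperone SERPINH1 and -0.33 for CANX. Among those of the cytosol and mitochondria it was -1.99 for DNAJB1, -0.97 for HSPE1 and -0.77 for CHORDC1. Other genes with a lower effect in NGP gave -0.34 for MCM4, -0.55 for MCL1, -0.51 for PPM1D, -0.81 for PLK2, -0.56 for the splicing factor SF3B3 and -0.59 for DDX20. Signalling and surface genes with a lower effect were CNTN6 (-2.39), SLC6A2 (-2.28), RERG (-1.73), PCDH7 (-1.35), BAMBI (-1.34), DKK1 (-1.31) and ACTB (-0.57). The lineage factors INSM2 and HAND1 gave -0.78 and -0.60.

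Another lineage factor had a higher effect in NGP, HAND2 by 0.89. The Notch genes NOTCH3, HES4 and NRARP were higher by 1.18, 1.08 and 0.89, and the receptors FGFR2 and SMO by 1.38 and 0.89. MYCL and MNT of the MYC network were higher by 2.08 and 0.41. Matrix genes followed, with 0.79 for COL1A1, 0.71 for COL18A1, 0.48 for COL4A2 and 2.10 for CSPG4. Single genes were KLHL31 (2.22), EFNA2 (1.66), F3 (1.13), ZFP36L1 (1.02), SPC24 (0.48) and MBTPS1 (0.31). Among non-coding genes AC124944.3, LINC01355 and LBX2-AS1 gave 2.60, 2.37 and 2.28.

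Reads with several alignments, which enter no gene's count, made up 22.0% and 21.77% of the totals with JSK591, above the 20.91% and 21.38% with DMSO.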

How the results depend on the processing

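Of 273 genes named and recomputed, 260 passed the test in NGP, and 233 kept call and direction under all of the alternatives that tested them. Leaving out 1 library changed the call or direction of 34. DNAJB6 and RBPJ, near 0 throughout and passing in none, changed sign, DNAJB6 to -0.0503 with the GC trend removed (with or without the replicate block) and -0.0088 in DESeq2, and RBPJ to 0.018 with total count scaling, 0.0080 with the stricter filter, 0.0075 once the GC trend was taken out and 0.0076 when the block joined it. As single libraries were left out, the DNAJB6 log2 change ranged from -0.0142 to 0.0077 and the RBPJ log2 change from -0.0607 to 0.0125. Of 104 counts of members higher or lower in 52 gene lists, most of them small, 18 to 27 moved by more than 1.5 times when 1 NGP library was left out, 1 to 12 when 1 CHLA-20 library was, 22 in DESeq2, 15 with the GC trend removed, 11 with the stricter filter, 10 with no filter and 8 with total count scaling. Some list counts printed without their alternatives moved too, among them the rises of the FOXO list and the falls of the ribosomal protein list. The counts of genes higher, lower, at least 2-fold changed and differing between lines shifted as single libraries were left out. None of them moved by more than 1.5 times, and each such fit leaves 1 library in a group. DESeq2 called 2083 genes higher, 219 of them at least 2-fold, and 69 at least 2-fold lower. With at least 10 counts in every library, 203 were at least 2-fold higher and 29 at least 2-fold lower, since most larger changes sat in genes of few counts. Total count scaling gave 3586 higher and 3222 lower, and removal of the trend with GC content 3014 and 4388. Replicate numbers did not pair libraries, since the correlation of same-numbered deviations was 0.0043 in NGP and between -0.027 and 0.012 over all pairs of groups. A fit with the replicate block over all libraries called 3256 higher, 3757 lower and 5397 differing between lines, and changed no call among the named genes, and with the block within each line the counts were 3250 and 3727. With 2 libraries a group and 4 residual degrees of freedom, a change that did not pass may still exist.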

Other observations

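Several transcripts of low level near MYCN, and 2 near MDM2, both amplified in this line, lost most of their counts. These genes were chosen after their values were seen. Within 1.5 Mb of the start of MYCN, 7 of 11 non-coding or pseudogene features tested fell and 1 rose, and of the 7 falls 6 were at least 2-fold, whereas of 4 other coding genes 1 fell. The antisense gene MYCNOS had 8060 counts with DMSO and 6303 with JSK591, and the lincRNA AC008164.1 rose, from 197 to 315, though not in DESeq2 (adjusted p = 0.0595). RN7SL104P, a pseudogene of signal recognition particle RNA 10.1 kb from MYCN, had 172 counts in the 2 DMSO libraries together and 20 in the 2 JSK591 libraries (-3.12 ± 0.34). The lincRNA GACAT3 had 203 and 10. A small nucleolar RNA, annotated as RF00561 (ENSG00000251704.1, chromosome 2, 16199203 to 16199295, GRCh38), had 109 and 0, at least 36.3-fold lower against a floor of 3 counts per group. AC104623.2, of unclear coding status, had 51 and 9. Among the coding neighbours, DDX1, an RNA helicase, had 10948 and 10688 counts and did not pass the test. Around MDM2 on chromosome 12 the non-coding features did not share this, with 1 of 12 lower and 1 higher. Of 14 other coding genes there 9 fell and 2 rose, and 2 of the falls were at least 2-fold. Of these, the calcium-activated chloride channel gene BEST3 (69643360 to 69699476) had 48 counts with DMSO and 0 with JSK591, at least 16-fold lower, and MYRFL 56 and 6. Over the whole genome 35 genes called lower had 0 counts in both JSK591 libraries and 7 called higher had 0 in both DMSO libraries. Why these transcripts fell was not tested.

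Genes of the circadian clock, whose factors set daily rhythms of transcription, were lower in NGP in 9 of 18 cases and higher in 1, beside 19.4% and 16.8% of all genes, with a median log2 change of -0.25. In CHLA-20 13 fell and 2 rose. The output factor DBP went from 34.1 and 34.4 to 21.3 and 22.1 CPM and the repressor NFIL3 from 23.5 and 26.6 to 15.2 and 16.9 CPM. TEF, a relative of DBP, fell by 0.52 ± 0.06, and the repressors BHLHE40, NR1D1 and CRY2 by 0.50 ± 0.12, 0.43 ± 0.06 and 0.42 ± 0.06. CLOCK, the activator, was the member that rose (0.21 ± 0.06), though without DMSO library 2 it was 0.14 and did not pass. The labels give no hour of harvest, and its part in these values was not tested.

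Lysosome and autophagy genes fell in 8 of 24 cases and rose in 1, with the falls at 5 under the stricter filter on low counts. The single rise was lost with no filter, with the GC trend removed and with DESeq2, and did not hold when any NGP library was left out. TFEB and TFE3, the factors that drive this programme, fell by 0.52 ± 0.08 and 0.56 ± 0.05, and the autophagy proteins UVRAG and WIPI1 by 0.62 ± 0.06 and 0.64 ± 0.16. For WIPI1, without JSK591 library 2 it was -0.47 and did not pass. In the list of methionine and polyamine metabolism 6 of 23 rose and 5 fell, with the rises at 3 without JSK591 library 1 and 3 with DESeq2. The polyamine-degrading enzymes SAT1 and SMOX went from 10.8 and 11.3 to 5.92 and 7.11 CPM and from 23.4 and 22.7 to 16.4 and 13.8 CPM. Of 25 genes of the BCL2 family and caspases, 7 rose and 5 fell, with the rises at 4 without the filter on low counts, 3 without DMSO library 1, 3 without DMSO library 2, 3 without JSK591 library 1, 4 without JSK591 library 2 and 3 with DESeq2. The death-promoting HRK and BAX rose by 0.63 ± 0.11 and 0.41 ± 0.05, and the survival protein MCL1 fell from 376 and 369 to 294 and 284 CPM, while BAK1, which promotes death, fell by 0.35 ± 0.08. Of 25 FOXO factors and targets, 7 rose and 8 fell. SESN1, a stress-induced brake on mTOR that p53 also induces, rose by 0.64 ± 0.07, and the ubiquitin ligase FBXO32 fell by 0.55 ± 0.06. Of 25 host genes of small nucleolar RNAs, 11 fell and 6 rose, with the falls at 6 without JSK591 library 2, EPB41L4A-AS1 giving -0.60 ± 0.06 and SNHG20 0.56 ± 0.12. Of 21 genes of the NRF2 response 6 rose and 6 fell, with the rises at 3 without DMSO library 1, 2 without JSK591 library 1, 3 without JSK591 library 2 and 3 with DESeq2, the thioredoxin reductase TXNRD1 giving 0.31 ± 0.04 and the factor NFE2L2 -0.25 ± 0.05.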
